A study of Homo sapiens with 19 samples.

Results

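The members described here are 30 of 120 nucleotides of human ribosomal RNA (rRNA) for which the deposited annotation names several guide small nucleolar RNAs. They were chosen as the sites whose annotation contains the text SNORD at least 2 times, whatever their values. They were set beside the 79 sites whose annotation contains that text once, called single-guide sites below. The other 11 sites carry no such text and enter only the counts over all sites. Among the members are 14 sites of 18S rRNA, 15 of 28S and 1 of 5.8S, and among the single-guide sites 28, 50 and 1.

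Box C/D small nucleolar RNAs pair with rRNA and place the methyltransferase fibrillarin (FBL) over a nucleotide, whose ribose then receives a methyl group at its 2'-O position. Each guide carries the sequence that selects the site, whereas FBL is the enzyme of every such particle. Many guides exist as several genes, often in introns of the same host gene, so that loss of a single copy can be made up by another, while loss of the shared enzyme reaches all copies. The study knocked down FBL or knocked out the guide SNORD127 in leukaemia cells and then put back FBL, mutant FBL or SNORD127. The question put to the members here was whether sites with more than 1 guide lost less methylation than single-guide sites when FBL was knocked down.

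All 19 libraries came from total RNA of Kasumi-1, a cell line established from acute myeloid leukaemia. The 14 knockdown (KD) libraries, controls included, received doxycycline at 100 ng/ml and formed 7 groups of 2. Both control KD and FBL KD were sequenced without re-expression and again with an empty vector, and FBL KD also with FBLQua, FBLTri or wild-type FBL. The 5 libraries without doxycycline came from single clones: a control clone, knockout clone C34 of SNORD127, and knockout clone C1 by itself, given SNORD127 back or given an empty vector. The labels do not name the promoters of the vectors, the residues changed in the mutants, or whether replicates came from separate cultures. The p-values therefore measure only how far these libraries spread, and that spread may be technical. FBLTri and FBLQua follow the sample titles, while the column names of the same libraries read Dual and Tri, so values for each mutant rest on the titles. The control clone is likewise a control by its title only, since its column name has the form of a knockout. Column names mark the FBL KD libraries without re-expression shFBL1 and shFBL2 and those with a vector shFBL4, and the labels do not say whether these are hairpins. Counts of rRNA ends hold no FBL or SNORD127 transcript, so the targeted genes could not be checked.

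Methylation was read by RiboMethSeq, in which RNA is broken by alkali and a methylated ribose protects the bond beside it. The deposited value, score C, is a fraction that compares the fragment ends next to a site with those at the 6 positions on either side, and it nears 1 where all molecules are methylated. Libraries held 5533150 to 18835537 end counts. Over the members the mean flanking count per site and library was 14.4 to 24057 with a median of 1314, against a median of 934.9 at single-guide sites. The 95% counting interval of a member's score had a median half-width of 0.0130, and it reached 0.394 at 18S-1606, 0.213 at 28S-Am3764 and 0.190 at 28S-Gm4588 in an FBL KD library without re-expression. A single position took 20.8% of the counts in replicate 2 of control KD with empty vector, which sets that library apart. Site names give the rRNA, the methylated base where background knowledge supplies it, and the position, which for 28S follows an older numbering. Positions are those of the rRNA itself and not of a genome build.

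Guide redundancy took a few forms. At 22 members 2 guides are named and at 8 members 3, and 27 members have lettered copies of 1 guide number. The 3 members with guides of different numbers are 18S-Gm601 (SNORD103A, SNORD103B and SNORD85), 28S-Am1511 (SNORD32A, SNORD32B and SNORD51) and 28S-Am1521 (SNORD77 and SNORD80). SNORD85 was found in RefSeq (GRCh38.p14) as an older name of SNORD103C, which would make 18S-Gm601 a site of copies as well, and the other 61 of 62 guide names matched a current symbol. These guide genes are 48 to 148 bases long, and 61 lie within another annotated gene. At 26 members all guides lie within 1 gene, many of them genes of ribosomal proteins: SNORD18A, SNORD18B and SNORD18C of 28S-Am1313 in RPL4, SNORD42A and SNORD42B of 18S-Um116 and SNORD4A and SNORD4B of 18S-Um121 in RPL23A, SNORD15A and SNORD15B of 28S-Am3764 in RPS3, and SNORD36A and SNORD36B of 18S-Am668 in RPL7A. Other members have their guides in non-coding hosts, such as SNORD12, SNORD12B and SNORD12C of 28S-Gm3878 in ZFAS1, SNORD1A, SNORD1B and SNORD1C of 28S-Gm4362 in SNHG16, and both guides of 28S-Am1521 in GAS5. At 4 members the guides are not in a shared gene. They are 5.8S-Gm75 (SNORD96A in RACK1, SNORD96B in AMMECR1), 28S-Cm4506 (SNORD35A and SNORD35B), 28S-Am1511 (RPL13A and EEF1B2) and 18S-Gm1328 (SNORD32A in RPL13A), the last 2 also naming SNORD32B, which lies in no annotated gene.

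Members do not all have guides of their own: 6 guides are named for more than 1 member. SNORD58A, SNORD58B and SNORD58C, in RPL17, are named for the adjacent nucleotides 28S-Um4197 and 28S-Gm4198, and SNORD45A for 18S-Am159 and 18S-Um172. At 11 members another listed site lies within 6 nucleotides and so inside the flank that score C divides by, as at 32 single-guide sites. In the control clone 26 of 30 members scored at least 0.9, as did 63 of 79 single-guide sites. 18S-1606, a predicted position assigned to SNORD73A and SNORD73B, scored 0 there, and 6 of 570 member scores in all were 0, against 37 of 1501 at single-guide sites.

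FBL knockdown lowered methylation at most members, and about as often as at single-guide sites. Over both backgrounds, FBL KD against control KD without re-expression and with empty vector, 24 of 30 members fell and 0 rose, by limma with adjusted p under 0.05. Of all 120 sites 71.7% fell, and of the 79 single-guide sites 62 did (78.5%). The median change was -0.0873 over the members, -0.104 over single-guide sites and -0.0853 over all sites. The members' median thus lay 0.0170 above that of single-guide sites, and 0.0044 above it without replicate 1 of FBL KD or 0.0034 without replicate 2 of control KD, both without re-expression. These are differences in score C, whose full range runs from 0 to 1. Making library medians equal takes out a shift of -0.118 in the median site, and 8 members then were called lower and 15 higher. That scaling subtracts the shift from every site, so a site that fell by less than the median site turns positive by construction. Of the 24 calls 21 held in every other alternative.

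Deep losses were also counted by class. A change of -0.1 or below was seen at 14 of 30 members (46.7%) and 40 of 79 single-guide sites (50.6%). At -0.2 or below there were 5 members and 21 single-guide sites, at -0.3 or below 2 and 11, and at -0.4 or below 0 and 6. The lowest member changed by -0.354 and the lowest single-guide site by -0.699. The single-guide site 28S-2402, which changed by -0.560, is annotated to SNORD143 and to 144 without the text SNORD. By a looser reading it has several guides, as has 28S-4468, and the counts at -0.3 or below are then 3 of 32 and 10 of 77, and at -0.4 or below 1 and 5. This is a description of the sites with no test between the classes. The mean change, which those sites weigh on, was -0.107 over members and -0.146 over single-guide sites. Among sites that scored at least 0.9 in the control clone the order was the other way round, with a median of -0.100 over 26 members and -0.0648 over 63 single-guide sites. Of the 11 single-guide sites at -0.3 or below 8 were among the 16 that scored under 0.9 there, whose median change was -0.288. Only 4 members scored under 0.9, with a median of -0.0259.

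Median falls were larger in 28S than in 18S in both classes. In 28S 13 of 15 members fell, with a median change of -0.136, and 46 of 50 single-guide sites, with a median of -0.163. In 18S 10 of 14 members fell, with a median of -0.0295, and 16 of 28 single-guide sites, with a median of -0.0468. Within each subunit the members' median thus lay nearer to 0, by 0.0262 in 28S. With the subunits pooled, the order turned once sites that have a listed neighbour were left out. Then 19 members had a median of -0.118 and 47 single-guide sites one of -0.0877. In 28S alone the order held in each background. Over 11 such members and 31 single-guide sites the medians were -0.107 and -0.152 without re-expression, and -0.159 and -0.239 with empty vector. In 18S, over 7 members and 15 single-guide sites, they were -0.0763 and -0.0248, and -0.0497 and -0.049. By background, 13 of all 15 members of 28S fell in each, against 74.6% of all 28S sites without re-expression and 81.7% with empty vector. In 18S 7 and 8 of 14 members fell, against 36.2% and 46.8% of all 18S sites.

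The same could be followed library by library. In the 4 control KD libraries the median score over the members was 0.989 and 0.994 without re-expression and 0.973 and 0.976 with empty vector, in the order of replicates 1 and 2. In FBL KD it was 0.911 and 0.901 without re-expression and 0.857 and 0.871 with empty vector. All 4 FBL KD libraries lay below all 4 controls, and those with empty vector were the lowest. The members' median exceeded that of the single-guide sites by 0.0056, 0.0077, 0.0011 and 0.0127 in the controls and by 0.0269, 0.0077, 0.0363 and 0.0336 in FBL KD. That excess was larger in 3 of these FBL KD libraries than in any control, but in replicate 2 of FBL KD without re-expression it was inside the control range. In FBL KD with FBLTri the excess was -0.0038 and 0.0105, with FBLQua -0.0071 and 0.0149, and with wild-type FBL 0.0095 and 0.0186. Its pooled SD between replicates of a group was 0.0092.

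Among single members, every FBL KD library lay below every control KD library at 22 of 30, as at 49 of 79 single-guide sites and at 59.2% of all sites. The deepest fall was at 28S-Am1313, the site of SNORD18A, SNORD18B and SNORD18C. Its score was 0.985 and 0.997 in control KD without re-expression, 0.984 and 0.980 in control KD with empty vector, 0.744 and 0.704 in FBL KD without re-expression, and 0.571 and 0.510 in FBL KD with empty vector. The groups did not overlap, and the vector libraries were the lowest. From 0.987 ± 0.0071 to 0.632 ± 0.110 (SD, n = 4), the change was -0.354 (SE 0.0146, adjusted p = 5.23e-08 by limma).

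5.8S-Gm75 is the one member of 5.8S rRNA, and its guides SNORD96A and SNORD96B come from different host genes. It scored 0.970, 0.981, 0.979 and 0.989 in the control KD libraries, in the same order, and 0.677, 0.711, 0.649 and 0.659 in FBL KD. The FBL KD libraries lay close together and far below the controls. The change was -0.305 (SE 0.0115, adjusted p = 3.56e-08 by limma). 28S-Cm3680, with SNORD88A, SNORD88B and SNORD88C in C19orf48P, scored 0.992, 0.992, 0.992 and 0.982 in controls and 0.781, 0.792, 0.721 and 0.704 in FBL KD. All FBL KD libraries were again below all controls, with the vector pair lower. It fell by 0.240 (SE 0.01, adjusted p = 5.38e-08 by limma).

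28S-Gm4588, the site of SNORD91A and SNORD91B in TSR1, was the least methylated member in the controls apart from the predicted 18S-1606, at 0.703, 0.694, 0.685 and 0.845. In FBL KD it scored 0.676, 0.319, 0.349 and 0.401. The groups did not overlap, but replicate 1 without re-expression lay just below the lowest control and replicate 2 was the lowest of all. The counting half-width was 0.0725 in that replicate 1 and 0.0330 in that control, so the counts do not settle the order of those libraries. The change was -0.296 (SE 0.0703, adjusted p = 0.00424 by limma), and from -0.385 to -0.206 with single replicates left out. By background it was called with empty vector (-0.390, adjusted p = 0.00682 by limma) but not without re-expression (-0.201, adjusted p = 0.115 by limma). Its listed neighbours within the flank, the single-guide sites 28S-4590 (SNORD72) and 28S-4593 (SNORD78), fell too, with changes of -0.255 and -0.137, and their part in the value at 28S-Gm4588 was not tested.

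28S-Am3764, with SNORD15A and SNORD15B, scored 0.992, 1.000, 0.880 and 0.960 in the controls and 0.630, 0.826, 0.671 and 0.781 in FBL KD. The highest FBL KD library stayed below the lowest control, although replicates differed by more here than at most members. The change was -0.231 (SE 0.0438, adjusted p = 0.00113 by limma). 28S-Gm4198 scored 0.99, 0.993, 0.986 and 0.992 in the controls and 0.778, 0.892, 0.781 and 0.747 in FBL KD. The controls lay together near 1 and replicate 2 without re-expression was the highest of the FBL KD libraries. It fell by 0.191 (SE 0.0211, adjusted p = 3.27e-05 by limma).

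28S-Gm4198 is next to 28S-Um4197, and the annotation names the same 3 SNORD58 copies for both. 28S-Um4197 scored 0.999, 1.000, 0.991 and 0.995 in the controls and 0.953, 0.936, 0.888 and 0.933 in FBL KD. Its groups did not overlap either, yet its fall of 0.0691 (SE 0.0088, adjusted p = 8.18e-05 by limma) was the smaller of the pair. The nucleotides are adjacent and each lies in the other's flank, so their scores are not independent.

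The other 7 members of 28S that fell are sites of diverse guides. 28S-Am1858 (SNORD38A and SNORD38B) changed by -0.165, 28S-Gm3878 (the SNORD12 copies) by -0.154, 28S-Gm4607 (SNORD121A and SNORD121B in UBAP2) by -0.136 and 28S-Gm3923 (SNORD111 and SNORD111B in SF3B3) by -0.122. 28S-Am1521 and 28S-Am1511, both with guides of different numbers, changed by -0.118 and -0.107. 28S-Cm4426, of SNORD49A and SNORD49B in SNHG29, changed by -0.0586. At these 7 the FBL KD and control libraries did not overlap. Beside 28S-Am1511 the single-guide site 28S-1509 (SNORD2) fell by 0.282, and its part in the value was not tested.

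In 18S the falls were shallower. 18S-Am159, the site of SNORD45A and SNORD45C in RABGGTB, changed most. It scored 0.984, 0.996, 0.972 and 0.996 in the controls and 0.881, 0.885, 0.842 and 0.856 in FBL KD. No library of either kind reached the range of the other. It fell by 0.121 (SE 0.0077, adjusted p = 6.81e-07 by limma). 18S-Am1031 (SNORD59A and SNORD59B in ATP5F1B) had the smallest standard error of the members and fell by 0.104 (SE 0.0033, adjusted p = 1.66e-08 by limma). 18S-Am590 (SNORD62A and SNORD62B in PRRC2B) changed by -0.0966, 18S-Um116 by -0.0781, 18S-Gm683 (SNORD19 and SNORD19B in GNL3) by -0.0685 and 18S-Am668 by -0.0442.

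Another 4 members of 18S were called lower with changes of -0.0339 to -0.0217. They are 18S-Um799 (SNORD105 and SNORD105B in PPAN), 18S-Gm1328, 18S-Gm601 and 18S-Um172 (SNORD45A and SNORD45B). FBL KD and control libraries overlapped at the first 3 of them. The calls of 18S-Um799, 18S-Gm601 and 18S-Um172 were lost when single libraries were left out, at 5, 8 and 6 of the 8 libraries, with changes from -0.0427 to -0.0161.

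The remaining 6 members were not called. 18S-Cm462, of SNORD14A and SNORD14B in RPS13, scored 0.972, 0.931, 0.892 and 0.897 in the controls and 1.000, 0.963, 0.841 and 0.869 in FBL KD. The FBL KD libraries were the highest and the lowest of the 8. The change was -0.0048 (95% interval -0.0307 to 0.021, adjusted p = 0.709 by limma).

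28S-Cm4506 scored 0.993, 1.000, 0.961 and 0.975 in the controls and 0.983, 0.953, 0.970 and 0.974 in FBL KD. The ranges overlapped, and the change was -0.0121 (95% interval -0.0267 to 0.0025). It was called lower without replicate 1 of FBL KD without re-expression (-0.0196, adjusted p = 0.00406 by limma) and, in the background without re-expression alone, by 0.0281 (adjusted p = 0.0235 by limma). 18S-Um121 scored 0.993, 0.989, 0.944 and 0.934 in the controls and 0.981, 0.979, 0.918 and 0.933 in FBL KD. The larger split there was between backgrounds. Within each background both FBL KD libraries lay below both controls, narrowly so with empty vector (0.933 against 0.934). The change was -0.0121 (95% interval -0.0266 to 0.0025), called lower on a logit scale (adjusted p = 0.00661 by limma). 18S-Gm509, of SNORD11 and SNORD11B in NOP58, scored 0.998, 0.994, 0.997 and 1.000 in the controls and 0.991, 0.971, 0.974 and 0.976 in FBL KD.

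At 18S-Gm509 every FBL KD library lay below every control although the change of -0.0192 (95% interval -0.0467 to 0.0083, adjusted p = 0.176 by limma) was not called. It was called lower, by limma, in a fit of the compared groups alone (adjusted p = 0.0136), on a logit scale (adjusted p = 0.0165) and with flanks of 2 positions (adjusted p = 0.0321). 28S-Gm4362 changed by -0.0469 (95% interval -0.108 to 0.0146) and was called lower, by 0.0737, without replicate 1 of control KD with empty vector. 18S-1606 changed by 0.0587 (95% interval -0.214 to 0.331), and its scores lay between 0 and 0.444 in the 8 libraries, with counting half-widths up to 0.394. The intervals of 18S-Cm462, 28S-Cm4506, 18S-Um121 and 18S-Gm509 leave out a loss as large as the members' median change.

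On knockdown over both backgrounds, in which 71.7% of all sites fell, the number and arrangement of guides went with little. Of the 22 members with 2 guides 17 fell, with a median change of -0.0733, and of the 8 with 3 guides 7 fell, with a median of -0.131. All but 1 of the members with 3 guides lie in 28S, and within 28S the medians were -0.129 over 8 members with 2 guides and -0.154 over 7 with 3. The 26 members with guides in 1 gene had a median of -0.0873 and the other 4 one of -0.066, with 21 and 3 called lower. All 3 members with guides of different numbers fell, as did 21 of the 27 with lettered copies. By methylated base all 9 Am members fell, with 9 of 11 Gm, 4 of 5 Um and 2 of 4 Cm. Bases were not supplied for nearly all other sites, so no share over all sites can be set beside these counts. Base was not separated from subunit either.

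For 5 guides the annotation names a member and a single-guide site. This sets a shared guide beside a site that has no other by the count of the text SNORD. These pairs were picked after their values had been seen. For SNORD80 the member 28S-Am1521, which also has SNORD77, changed by -0.118, and 28S-1612 by -0.0111. For SNORD15A the member 28S-Am3764 changed by -0.231 and 28S-3771 by -0.0512. In both pairs both sites fell, and the site with more named guides had the larger change. For SNORD73A the order was the other way, with a change of -0.246 at 28S-1747 and the predicted member 18S-1606 not called.

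SNORD62A is named for the member 18S-Am590, which fell, and for 28S-4468, which scored between 0.991 and 1 in all 8 libraries and changed by 0.0026. The annotation of 28S-4468 also carries 62B without the text SNORD, so by a looser reading it has both copies too. For SNORD45C the single-guide site 18S-Cm174 scored 0.948, 0.916, 0.825 and 0 in the controls and 0.648, 0.567, 0.348 and 0.429 in FBL KD. The score of 0 came from replicate 2 of control KD with empty vector, and the other 3 controls lay above all FBL KD libraries. Its change of -0.174 had an SE of 0.152 and was not called. Without re-expression, where that library is not compared, the change was -0.324 (SE 0.215, not called) against -0.107 at the member 18S-Am159, so there the member had the smaller change. Both 28S-4468 and 18S-Cm174 have listed neighbours inside the flank, whose part was not tested.

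The knockdown was seen in each background, which share no library. Without re-expression 21 of 30 members fell, against 59.2% of all sites, with a median of -0.0796 over members and -0.0742 over single-guide sites, of which 50 of 79 fell. With empty vector 22 members fell, against 67.5% of all sites, with medians of -0.0839 and -0.115, and 59 single-guide sites fell. So the members' median lay below that of single-guide sites in the first background and above it in the second, and with replicate 2 of FBL KD without re-expression left out it lay above by 0.0344 in the first as well. 19 members fell in both, 6 in neither, 2 were called without re-expression alone (18S-Gm683 and 28S-Cm4506) and 3 with empty vector alone (18S-Gm601, 18S-Um799 and 28S-Gm4588). On the scale of equal library medians 6 members were lower with 11 higher in the first background, and 6 with 15 in the second.

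The size of the effect itself differed between backgrounds at 9 of 30 members, 7 with a more negative change with empty vector, against 30% of all sites in either direction and 27 of 79 single-guide sites. The background cannot be told apart from the shFBL number of the column names, nor from depth. Libraries without re-expression held 5533150 to 9021579 end counts, and those with empty vector 11232162 to 13278107. 28S-Am1313 (-0.175, SE 0.0292, adjusted p = 0.00326) and 28S-Am1858 (-0.157, SE 0.0386, adjusted p = 0.0193) lost more with empty vector, by limma. 28S-Am1858 scored 0.891 and 0.929 in FBL KD without re-expression and 0.707 and 0.747 with empty vector, where the controls scored 0.998, 0.994, 0.952 and 0.988. The vector pair was thus clearly the lower.

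28S-Gm3878, guided by the ZFAS1-hosted SNORD12 copies, went the other way. It scored 0.957, 0.949, 0.960 and 0.956 in the controls, 0.744 and 0.714 in FBL KD without re-expression, and 0.877 and 0.869 with empty vector. The controls were level, and the pair without re-expression was the lower. The difference of effects was 0.139 (SE 0.0208, adjusted p = 0.00221 by limma), the one of the 9 that stayed called in all 17 alternatives. 28S-Am1521, in GAS5, also lost less with empty vector, at 0.898 and 0.930 against 0.855 and 0.782 without re-expression, with a difference of 0.114 (SE 0.0288, adjusted p = 0.0195). 28S-Gm3923 (-0.0755, adjusted p = 0.0195) and 18S-Cm462 (-0.0701, adjusted p = 0.0461) complete the 6 largest. With library medians made equal 2 members were more negative and 5 less, and on a logit scale 0 and 2. The 7 more negative members became 3 or 4 when a library with empty vector or a control KD library without re-expression was left out.

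Wild-type FBL raised methylation at most members. Against empty vector 18 of 30 rose and 0 fell, against 57.5% of all sites higher and 51 of 79 single-guide sites, by limma with adjusted p under 0.05. The medians were 0.0524 over members and 0.0839 over single-guide sites. Of the 18 calls 12 held with any single library left out. The empty-vector libraries also entered the knockdown comparison. 28S-Am1313 scored 0.925 and 0.919 with wild-type FBL against 0.571 and 0.510 with empty vector, a rise of 0.382 (SE 0.0206, adjusted p = 9.88e-07 by limma). 5.8S-Gm75 scored 0.889 and 0.898 against 0.649 and 0.659, a rise of 0.239. At both sites the wild-type pair lay far above the empty-vector pair and below every control library.

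28S-Cm3680 rose by 0.227, 28S-Am1858 by 0.193 and 28S-Gm4198 by 0.168, and in 18S 18S-Am1031 rose by 0.0918 and 18S-Am159 by 0.0912. 28S-Am3764, at 0.836 and 0.911 with wild-type FBL against 0.671 and 0.781, did not overlap but was not called (adjusted p = 0.0704 by limma). 28S-Gm4588 scored 0.443 and 0.472 against 0.349 and 0.401 and was not called either. Equal library medians, which remove a shift of 0.0958, left 4 members called higher and 15 lower, the 4 being 28S-Am1313, 28S-Am1858, 28S-Cm3680 and 5.8S-Gm75.

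The gain with wild-type FBL was set against the loss without re-expression, which comes from other libraries, as a slope through 0 over sites. It was 78.3% over the members and 65.6% over single-guide sites. The members' value ranged from 63.6 to 82.1% and that of single-guide sites from 62.0 to 68.0% with each library left out in turn, both lowest without replicate 1 of FBL KD without re-expression. Without that library the values were thus 63.6% and 62.0%. In 28S the slopes were 80.3% over members and 67.9% over single-guide sites, and in 18S 56.7% and 54.7%. The mean change without re-expression was -0.0909 over members and -0.121 over single-guide sites, against -0.122 and -0.171 with empty vector. The slope therefore divides by the smaller loss and is not the share of the empty-vector loss that was regained. Cells with wild-type FBL still lay below control KD with empty vector at 9 of 30 members, against 29.2% of all sites and 26 of 79 single-guide sites. These were 28S-Gm4588 (-0.308), 5.8S-Gm75 (-0.0909), 28S-Gm3923 (-0.0828), 18S-Am590 (-0.059), 28S-Cm3680, 18S-Um116, 18S-Am159, 28S-Am1511 and 18S-Am1031, the last 5 with changes from -0.0477 to -0.0291. Without replicate 1 of wild-type FBL 4 members were called lower, and 5 without replicate 2 of control KD with empty vector. The call of 28S-Gm4588 was lost in 8 of 12 alternatives, its change ranging from -0.388 to -0.228 with single replicates left out.

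The mutants did not bring the members back as a class. FBLTri left 19 of 30 members lower than wild-type FBL, against 62.5% of all sites and 56 of 79 single-guide sites, and FBLQua left 18 lower, against 59.2% of all sites and 53 single-guide sites. Both comparisons use the same wild-type libraries. At 18S-Am159 FBLTri lay below wild type, with a difference of -0.285 (SE 0.0109, adjusted p = 1.98e-07 by limma). The FBLQua difference there was -0.223 (SE 0.0109, adjusted p = 1.07e-06 by limma). At 5.8S-Gm75 FBLTri gave a difference of -0.261 and FBLQua one of -0.258. With library medians made equal FBLTri was lower at 6 members and higher at 11, and FBLQua lower at 5 and higher at 12.

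Set against empty vector, the mutants lowered members mainly in 18S, with medians over all members of 0.0007 for FBLTri and -0.0017 for FBLQua. With FBLTri 8 of 30 members fell and 5 rose, against 20% and 16.7% of all sites, and 16 and 14 of 79 single-guide sites. With FBLQua 6 fell and 2 rose, against 11.7% and 7.5% of all sites, and 8 and 7 single-guide sites. Of the 8 members that fell with FBLTri 7 lie in 18S, the other being 28S-Gm3878, and all 6 that fell with FBLQua lie in 18S. That was 7 of 14 members in 18S for FBLTri, where 7 of 28 single-guide sites and 29.8% of all 18S sites fell. For FBLQua it was 6 of 14, where 5 of 28 single-guide sites and 23.4% of all 18S sites fell. 5 of the 7 members that fell with FBLTri have a listed neighbour within 6 nucleotides, whose part was not tested. Among sites without one FBLTri lowered 2 of 7 members, 2 of 15 single-guide sites and 15.4% of all sites in 18S.

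The comparisons of both mutants share the empty-vector libraries, so their values are given side by side. 18S-Am159 scored 0.842 and 0.856 with empty vector, 0.662 and 0.650 with FBLTri and 0.712 and 0.722 with FBLQua. The mutants lay below the empty vector without overlap, FBLTri lowest. The change was -0.193 (SE 0.0109, adjusted p = 6.98e-06) with FBLTri and -0.132 (SE 0.0109, adjusted p = 0.000155) with FBLQua, by limma. 18S-Um116 scored 0.847 and 0.872 with empty vector, 0.688 and 0.701 with FBLTri and 0.729 and 0.756 with FBLQua. It took the same order, with changes of -0.165 and -0.117.

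18S-Um799 scored 0.887 and 0.888 with empty vector, 0.731 and 0.728 with FBLTri, and 0.804 and 0.844 with FBLQua, and changed by -0.158 and -0.063. 18S-Gm509, which was not called on knockdown, scored 0.974 and 0.976 with empty vector, 0.895 and 0.887 with FBLTri and 0.858 and 0.923 with FBLQua, and changed by -0.084 and -0.0843. The FBLQua value at 18S-Gm509 was -0.0518 without replicate 1 of FBLQua and -0.117 without replicate 2. At both sites all mutant libraries were below both empty-vector libraries. 18S-Gm1328 fell by 0.0656 (FBLTri) and 0.0614 (FBLQua), and 18S-Am668 changed by -0.0713 and -0.0482. 18S-Cm462 and 28S-Gm3878 fell with FBLTri, by 0.0741 and 0.110, and their changes of -0.0276 and -0.0476 with FBLQua were not called.

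Of the members that rose over empty vector with FBLTri 4 lie in 28S and 1 in 18S, and with FBLQua 1 lies in each. In 28S FBLTri raised 4 of 15 members, 12 of 50 single-guide sites and 22.5% of all sites. In 18S it raised 1 of 14 members, 2 of 28 single-guide sites and 8.51% of all sites. 28S-Am1313 scored 0.768 and 0.791 with FBLTri and 0.693 and 0.696 with FBLQua, above the empty-vector pair and below the wild-type pair. The rises were 0.238 (SE 0.0206, adjusted p = 3.27e-05) and 0.154 (SE 0.0206, adjusted p = 0.000883), by limma. 18S-Am1031 rose by 0.0508 with FBLTri and 0.03 with FBLQua. FBLTri also raised 28S-Cm3680, 28S-Am1511 and 28S-Gm4198, by 0.0691, 0.0318 and 0.0948. By number of guides, FBLTri raised 4 of 7 members of 28S with 3 guides and lowered 1. It called 0 of 8 with 2 guides in either direction. FBLQua raised 1 of the 7 and 0 of the 8. The calls of 28S-Am1511 and 28S-Gm4198 were lost whichever of the 4 compared libraries was left out, and in 6 and 8 of 13 alternatives in all. With FBLQua the calls of 18S-Am668 and 18S-Um799 were lost without 4 and 3 of the 4 libraries. The calls against empty vector depended on the fit: for FBLQua 0 members were called lower or higher in a fit of the compared groups alone.

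Removing SNORD127, a guide of no member, changed 0 of 30 members, by limma with adjusted p under 0.05. The comparison set the knockout clones and clone C1 with empty vector against the control clone and clone C1 with SNORD127. It called 0.833% of the 120 sites, which is 18S-1447, the single-guide site annotated to SNORD127, named here after its value was seen. At an unadjusted p under 0.05 there were 2 sites, 0 of them members. The largest change of a member was -0.0123, at 28S-Gm4588, and the 95% intervals ranged from -0.0102 to 0.008 at 18S-Am1031 to -0.344 to 0.324 at 18S-1606.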

How the data were processed

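Total RNA of 19 Kasumi-1 libraries went through RiboMethSeq. RNA was, per the labels' protocols, hydrolysed in alkali and made into small RNA libraries, and per the submitters' processing notes cutadapt and Bowtie2 were used, their versions and the reference sequence being not given in the sources used here. End counts at 7000 rRNA positions were deposited as raw whole numbers. For 120 of these the authors deposited score C, a fraction between 0 and 1. Recomputed from the counts, with flanks of 6 positions weighted from 1 down to 0.5 and negative scores set to 0, the score matched in 2280 of 2280 cases within 1e-09. Numerator and denominator of score C come from the same library, so depth of 5533150 to 18835537 ends mainly sets its precision, and counting intervals (95%, Poisson) cover counting error only.

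The members, lists and tests were chosen with earlier results of these data known. By rule every member was named, and values by library were due for the called members with the 6 largest knockdown falls, those with the 4 smallest changes, members called higher or in opposite directions, and up to 6 with a called difference between backgrounds. Single-guide sites could be named as neighbours within 6 nucleotides. Any further values by library, and other single-guide sites, were picked after their values had been seen. Tests were two-sided, by limma 3.58.1 (R 4.3.3) with each group as a coefficient and a trend in the variance. Benjamini-Hochberg adjustment ran over all 120 sites, with a threshold of 0.05. The 14 knockdown libraries were fitted together, and all 19 for SNORD127. Classes of sites were described by counts and medians with no test. The fit was also tested on simulated data. Guide genes were looked up by name in RefSeq (GRCh38.p14). Python 3.11.15, pandas 2.3.3, numpy 2.4.6 and scipy 1.17.1 were used.

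Alternatives were flanks of 2 positions, a logit scale (scores held between 0.01 and 0.99), fits of the compared groups alone, no trend in the variance, equal library medians, dropping the 10% of sites whose flanking counts were lowest, a replicate block, single replicates left out, scores not set to 0, sites with a listed neighbour left out, a looser reading of the annotation, and means for medians. Leaving out predicted or unnumbered guides, taking 18S or 28S alone, and dropping replicate 2 of control KD with empty vector from fits were alternatives chosen after seeing the data. No guide or rRNA sequence is printed. The host genes of some guides are not reported here.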

Additional observations from a re-analysis of the deposited data

Results flagged for a closer look

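The effect of FBL KD differed between backgrounds, by limma's test of the difference itself, at 9 members, given as the change with empty vector minus that without re-expression. The difference was -0.175 at 28S-Am1313, -0.157 at 28S-Am1858, -0.076 at 28S-Gm3923, -0.07 at 18S-Cm462, -0.069 at 28S-Cm3680, -0.048 at 28S-Am1511 and -0.034 at 18S-Am1031. It was 0.139 at 28S-Gm3878 and 0.114 at 28S-Am1521. The background goes together with the shFBL number in the column names and with depth, and cannot be told apart from either. The calls of 28S-Gm3878, 28S-Am1313 and 18S-Am1031 held with any single library left out, and those of the other 6 were lost without at least 1 library.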

How the results depend on the processing

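Of the 24 members called lower on knockdown 21 kept the call when each library was left out, and 8 kept it in every alternative. With library medians made equal, members called lower and higher were 8 and 15 for knockdown over both backgrounds, 6 and 11 without re-expression, 6 and 15 with empty vector, 2 and 5 for the difference between backgrounds, 15 and 4 for wild-type FBL against empty vector, 0 and 5 for wild-type FBL against control, 6 and 11 for FBLTri and 5 and 12 for FBLQua against wild-type FBL, and 4 were higher for FBLQua against empty vector. That scaling takes out the median shift itself, also where it comes from the knockdown.

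With library medians made equal the knockdown change turned positive at 18S-Um116 (0.0401), 18S-Um121 (0.106), 18S-Um172 (0.0965), 18S-Cm462 (0.113), 18S-Gm509 (0.0989), 18S-Am590 (0.0216), 18S-Gm601 (0.0948), 18S-Am668 (0.0739), 18S-Gm683 (0.0496), 18S-Um799 (0.0842), 18S-Am1031 (0.0142), 18S-Gm1328 (0.093), 28S-Am1511 (0.0113), 28S-Am1521 (0.0004), 28S-Um4197 (0.049), 28S-Gm4362 (0.0713), 28S-Cm4426 (0.0596) and 28S-Cm4506 (0.106). The change with wild-type FBL turned negative at 18S-Um116 (-0.0563), 18S-Um121 (-0.0816), 18S-Am159 (-0.0046), 18S-Um172 (-0.0854), 18S-Gm509 (-0.0789), 18S-Am590 (-0.0379), 18S-Gm601 (-0.0713), 18S-Am668 (-0.0579), 18S-Gm683 (-0.0793), 18S-Um799 (-0.0489), 18S-Am1031 (-0.004), 18S-Gm1328 (-0.0757), 28S-Am1511 (-0.0022), 28S-Am1521 (-0.0522), 28S-Gm3878 (-0.0356), 28S-Gm3923 (-0.0193), 28S-Um4197 (-0.0365), 28S-Cm4426 (-0.0591), 28S-Cm4506 (-0.0874) and 28S-Gm4607 (-0.0056). The difference between backgrounds turned to 0.005 at 18S-Am1031, and on a logit scale to 0.0037 at 28S-Am1511.

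In fits of the compared groups alone the difference between backgrounds was called lower at 4 members and higher at 1, and FBLQua against empty vector at 0 in either direction. On a logit scale 0 members were called more negative with empty vector, 16 lower for wild-type FBL against control, and against empty vector FBLTri had 4 lower with 2 higher, FBLQua 3 with 0. Flanks of 2 positions left 3 members higher with FBLTri than empty vector. Leaving out sites with a listed neighbour left 19 members, of which 12 were lower for FBLTri and 11 for FBLQua against wild-type FBL, and against empty vector 3 lower with 3 higher for FBLTri, 2 lower for FBLQua. The causes were not tested.

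With single replicates left out, members called lower numbered 21 to 24 for knockdown over both backgrounds, 16 to 20 without re-expression (0 to 1 higher), 17 to 21 with empty vector, 3 to 7 for the difference between backgrounds (1 to 4 higher), 4 to 7 for wild-type FBL against control, 7 to 8 for FBLTri (3 to 4 higher) and 4 to 6 for FBLQua (2 to 3 higher) against empty vector, and 12 to 18 rose with wild-type FBL. Dropping replicate 2 of control KD with empty vector moved no count by over 1.5 times in comparisons that do not use that group. Where it is compared, members below control with wild-type FBL went from 9 to 5 and those more negative with empty vector from 7 to 3. The labels do not say that a replicate number marks a shared batch. Deviations of same-numbered libraries correlated at -0.226 to 0.694, over 0.1 in 12 of 21 pairs of groups, so a pairing was neither taken as given nor excluded. With a replicate block 23 members fell on knockdown over both backgrounds, and no count of members moved by over 1.5 times. Among the member calls followed, 7 were lost and 1 was gained with the block, the gain being 28S-Am3764 with wild-type FBL (adjusted p = 0.0214 by limma).

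The members' median change minus that of single-guide sites was 0.017 for knockdown over both backgrounds, -0.0054 without re-expression, 0.0315 with empty vector and -0.0316 with wild-type FBL. For both backgrounds it was -0.03 without sites that have a listed neighbour, 0.0394 with means, 0.0262 in 28S alone and 0.0034 to 0.0238 with single replicates left out. Without re-expression it was 0.005 without the lowest flanking counts, -0.0194 without neighbours, 0.0304 with means, 0.0082 in 18S alone, 0.0131 in 28S alone and -0.0045 to 0.0344 with single replicates left out. With empty vector it was 0.0045 with flanks of 2 positions, 0.05 without the lowest flanking counts, 0.0127 without neighbours, 0.0484 with means, 0.049 without predicted or unnumbered guides, 0.0051 in 18S alone and 0.0119 to 0.0592 with single replicates left out. With wild-type FBL it was -0.0145 with flanks of 2 positions, -0.0072 without neighbours, -0.0125 in 18S alone and -0.043 to -0.0115 with single replicates left out. Depth limits 18S-1606, 28S-Am3764 and 28S-Gm4588 most.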
